A study of Homo sapiens with 9 samples.

Results

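The comparison described here is the change in mRNA levels of control Huh-7 cells between 6 h and 12 h in 1% O2. It uses 2 of the 9 arrays of the study, the shGFP arrays whose titles give those times, and its question is which genes went on changing once the cells had already been in low oxygen for 6 h. No normoxia array enters the difference.

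Huh-7 is an established human hepatoma line. The study grew it in Dulbecco's modified Eagle's medium with fetal bovine serum and penicillin, and made stable lines with lentiviral short hairpin RNAs against NDRG3, against HIF1A or, as the control, against GFP, a jellyfish protein that human cells do not make. Each line therefore carried a lentiviral hairpin, the control included, and the labels do not say whether a line was 1 clone or a pool. The control arrays compared are shGFP cells after 6 h and after 12 h in 1% O2. Beside them stand shNDRG3 cells at the same times, shHIF1A cells after 12 h, 1 array of shGFP cells in normoxia for the 6 h and 12 h series, and, on a second platform, shGFP cells in normoxia and after 24 h in 1% O2. Each group is 1 array. A difference between the control arrays therefore has no replicate check of its own, and the number of arrays limits its precision. Nothing in the labels gives the cultures behind the arrays, so a difference in culture density or medium between the 6 h and 12 h dishes cannot be told apart from time.

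Cells short of oxygen stabilise the alpha subunits of the hypoxia-inducible factors (HIF), which pair with ARNT and switch on genes for glycolysis, angiogenesis, pH control and matrix crosslinking. Hypoxia also slows protein synthesis, induces the ATF4 and CHOP arm of the integrated stress response, and lowers ribosome production, which is costly in ATP. Cell cycle genes fall into a group read out in G1 and S phase, driven by E2F factors, and a group read out in G2 and mitosis, held down in quiescent cells by the DREAM complex through a cell cycle homology region (CHR).

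The deposited gene-level table gives linear array intensity for 18153 genes. Differences are log2(intensity + 32) at 12 h minus 6 h, so 1 is a 2-fold and 0.58 a 1.5-fold difference, and they understate the change of dim genes, because the background was left in the values. Genes reaching an intensity of 127.3 on at least 1 of the compared arrays were kept, which left 11372 genes. Of 25 hepatocyte markers 5 passed this level at 6 h and 6 at 12 h. Median marker intensity was 108.8 and 105.7, although CPS1, a urea cycle enzyme, read 22952 and 22071; most plasma protein genes that define hepatocytes were therefore not above the filter on these arrays. Of 24 markers of blood, endothelial, fibroblast and squamous cells 7 passed at both times, with summed intensities of 5732 and 6270. The brightest of these was SFN, a squamous marker, at 1778 and 1731. Among all 18153 genes, 11372 passed on at least 1 of the arrays. Hepatocyte markers thus passed no more often than markers of other cells, and the name of the line rests on the titles. NDRG3 read 1278 at 6 h and 1456 at 12 h in shGFP cells, against 267.7 and 215.4 in shNDRG3 cells. HIF1A read 824 and 897 in shGFP cells and 231.5 in the shHIF1A cells, so both hairpin targets were low in the line named for them.

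Few genes of the control cells moved far between the times on these values, in which the background was left. Of the 11372 genes, 95.6% stayed within 1.5-fold and the median difference was 0.00. The arrays share 1 intensity distribution, so a median near 0 was largely fixed in advance and a shift of all genes could not show. With background subtracted more genes were counted, as given at the end. At 2-fold, 28 genes were higher at 12 h (0.246% of the genes tested) and 15 were lower (0.132%), and at 1.5-fold 264 were higher (2.32%) and 236 lower (2.08%). Among the higher genes were the matrix crosslinking enzyme LOX, metallothioneins, the hexokinase HK1, the brain-type aldolase ALDOC, IGFBP3 and the stress phosphatase subunit PPP1R15A. Among the lower genes were the mitotic genes CDC20, CENPA, CCNB1 and ASPM and the ribosome biogenesis genes NOP16, NOLC1, RRS1 and DKC1.

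The same interval in shNDRG3 cells shares no array with the control difference. There 34 genes were 2-fold higher (0.3%) and 23 lower (0.203%), and 246 were 1.5-fold higher (2.17%) and 275 lower (2.42%). Of the 28 genes 2-fold higher in control cells, 28 were also higher in shNDRG3 cells, 26 of them by 1.5-fold and 11 by 2-fold, with a median of 0.91 and a range of 0.45 to 1.83. Of the 15 lower genes 15 were lower, 15 by 1.5-fold and 11 by 2-fold, with a median of -1.03. The 11 shared higher genes were 39.3% of the control list and 32.4% of the shNDRG3 list, and the 11 shared lower genes were 73.3% and 47.8%. Over the 10891 genes measured in both lines the differences correlated with Pearson's r of 0.75 and Spearman's rho of 0.68, across genes that are not independent replicates. No gene moved 1.5-fold up in one line and 1.5-fold down in the other, and EDN2, endothelin 2, was the only gene whose differences were over 2-fold apart: it read 271.7 and 398.5 in shGFP cells and 367.3 and 1517 in shNDRG3 cells.

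**Figure D1:**
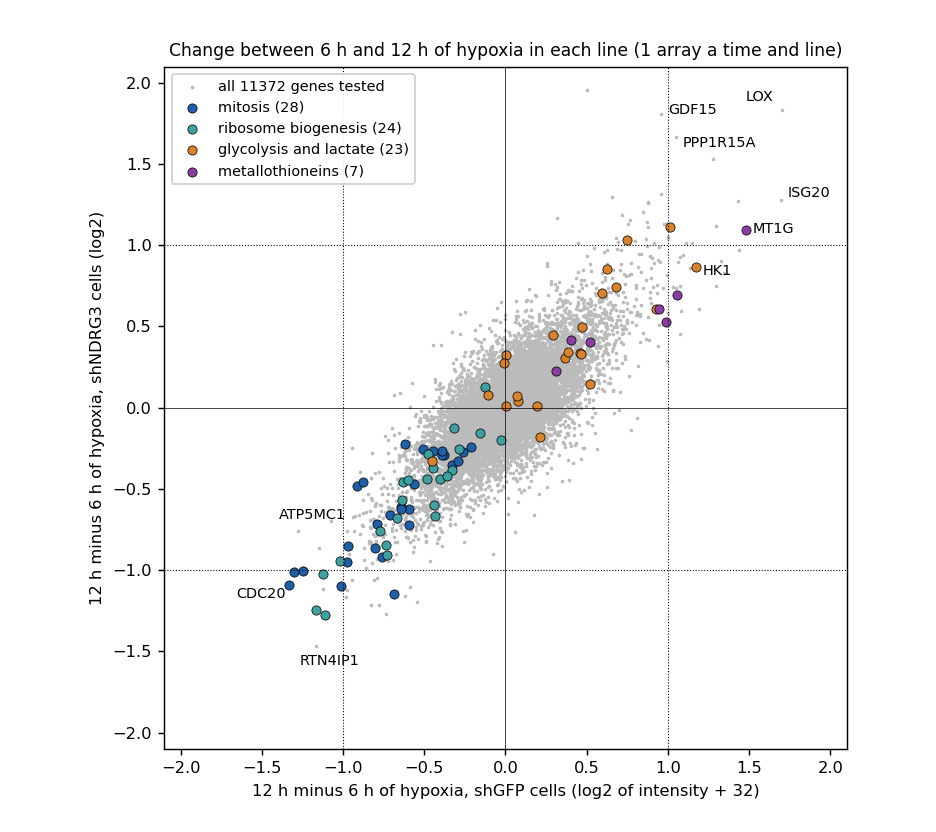
Difference between 12 h and 6 h of hypoxia in shGFP cells (horizontal, log2 of intensity + 32) against the same difference in shNDRG3 cells (vertical), 1 point a gene and 1 array a time and line; dotted lines mark 2-fold. Mitosis (28 genes) and ribosome biogenesis (24 genes) lie in the lower left, metallothioneins (7 genes) in the upper right, and no gene lies 1.5-fold out in the upper left or lower right.

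With both lines in 1 model (limma, 4 arrays, a term for line and a term for time), 1502 genes rose (12.7% of 11825) and 1474 fell (12.5%) at an adjusted p under 0.05, and "rose" and "fell" below refer to these calls. The model has 1 residual degree of freedom and leans on the variance pooled over genes, so its p-values measure the spread between the time differences of the lines, not between cultures of 1 line. The smallest mean difference it called was 0.25 and the median called was 0.37, so most calls were well under 1.5-fold. All 43 genes 2-fold apart in control cells were called in the same direction, as were 496 of the 500 at 1.5-fold. The control difference is itself part of that model and chose most of the genes named below, so the shNDRG3 value is given beside many of them; the largest limma calls were chosen with the shNDRG3 arrays as well.

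**Figure D2:**
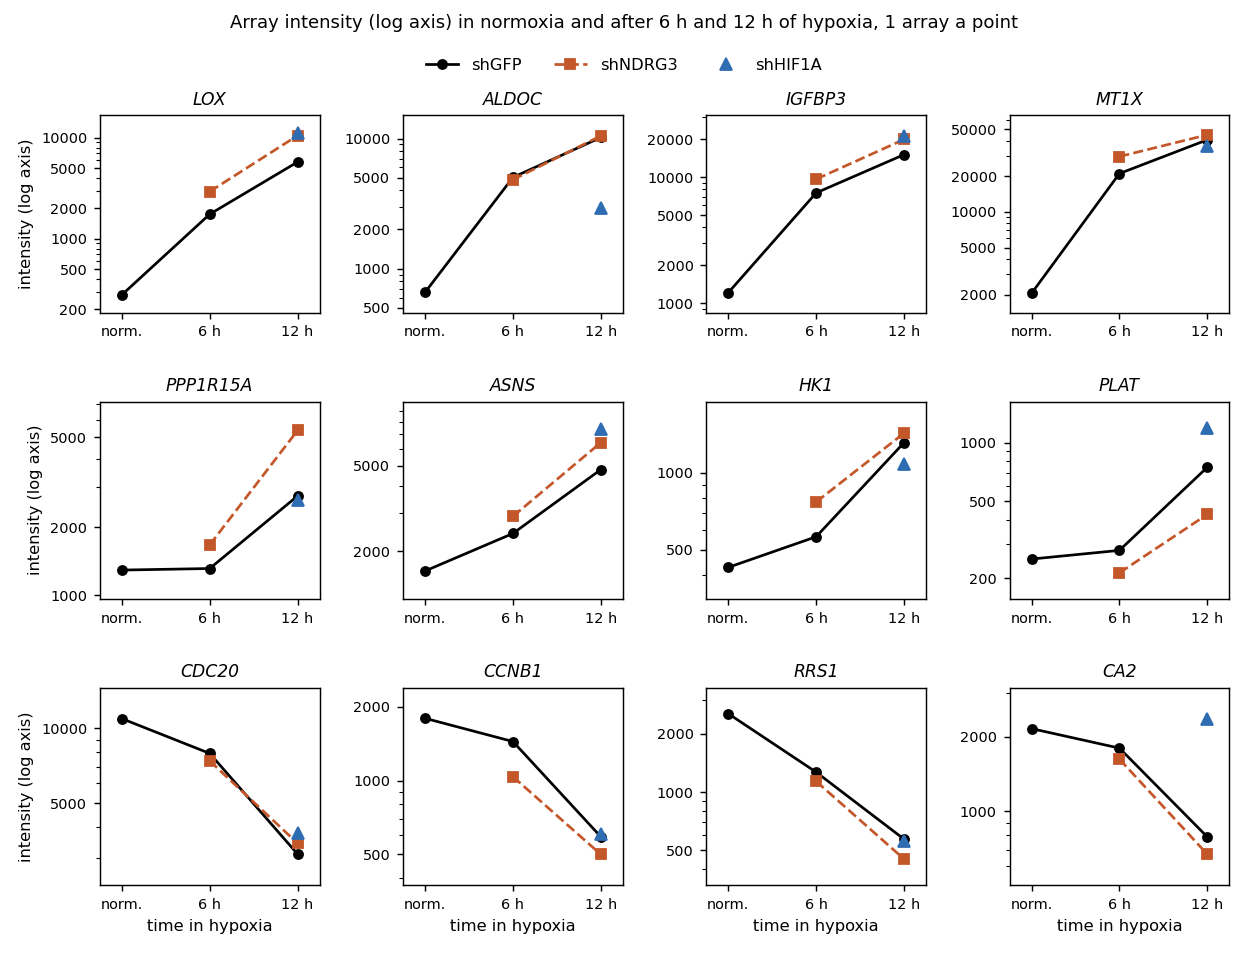
Array intensity (log axis) of 12 genes in normoxia (norm.) and after 6 h and 12 h of hypoxia, 1 array a point: shGFP (circles), shNDRG3 (squares) and shHIF1A (triangle, 12 h only). LOX, ALDOC, IGFBP3 and MT1X were already far above normoxia at 6 h and went on rising, PPP1R15A and PLAT were near normoxia at 6 h, and the 4 genes in the bottom row were lower at 12 h than at 6 h in both lines.

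The largest increase was that of LOX, lysyl oxidase, which crosslinks collagen and elastin. Its intensity was 278.7 in normoxia, 1752 at 6 h and 5764 at 12 h in shGFP cells, and 2936 at 6 h and 10522 at 12 h in shNDRG3 cells. Each 12 h array was above both 6 h arrays, and the difference was 1.70 in shGFP and 1.83 in shNDRG3 cells (limma mean 1.76 ± 0.09 SE, adjusted p = 3.55e-12). Together with LOX rose collagen genes and the enzymes that hydroxylate collagen. COL5A1, a fibrillar collagen chain, read 3038 and 7783 in shGFP and 4868 and 8682 in shNDRG3 cells (limma 1.09, adjusted p = 4.87e-08). P4HA1, a prolyl hydroxylase subunit, read 1618 and 3148 against 1810 and 3631 (limma 0.97, adjusted p = 3.92e-08). ITGA5, the fibronectin receptor subunit, read 4146 and 7977 against 6457 and 12132 (limma 0.92, adjusted p = 7.5e-08). Of 15 measured genes of matrix, collagen hydroxylases and lysyl oxidases 10 rose and 1, COL1A1, fell, with a median control difference of 0.51 against 0.00 over all genes, and 7 were 1.5-fold higher. Of all genes in the model 12.7% rose and 12.5% fell, and 2.32% of those tested in control cells were 1.5-fold higher. COL4A1 (486.9 and 554) and LOXL4 (131.1 and 160.3) did not pass the test, and FN1 at 104.3 and 105 was not above the filter.

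PLAT, the tissue plasminogen activator, read 251.6 in normoxia, 278.8 at 6 h and 746.5 at 12 h in shGFP cells, and 213.7 and 427.1 in shNDRG3 cells (limma 1.11, adjusted p = 2.05e-08). At 6 h PLAT differed from normoxia by 0.13. IGFBP3, an insulin-like growth factor binding protein, read 1216 in normoxia, 7507 at 6 h and 15082 at 12 h in shGFP cells, and rose again in shNDRG3 cells, from 9642 to 19902 (limma 1.02, adjusted p = 1.71e-08).

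Of the 35 listed hypoxia-inducible genes outside glycolysis, 32 were measured. Among these 19 rose and 1 fell, the median control difference was 0.43 and 14 were 1.5-fold higher with none 1.5-fold lower. The shares over all genes were 12.7% that rose, 12.5% that fell and 2.32% that were 1.5-fold higher in control cells. CA9, the membrane carbonic anhydrase, read 7582 and 14247 in shGFP cells and 8250.2 and 13806 in shNDRG3 cells (limma 0.82, adjusted p = 4.81e-07). BNIP3, a mitophagy receptor, read 18690.2 and 28731 against 22000.2 and 33024 (limma 0.60, adjusted p = 2.6e-05). VEGFA, the angiogenic growth factor, read 353.6 and 522.4 against 376.9 and 603 (limma 0.58, adjusted p = 4.56e-05). NDRG1, long used as a hypoxia marker, read 28731 and 39399 in shGFP cells, near the top of the range of this array type (highest gene 56012 at 12 h), where differences can be compressed. It rose by 0.44 in the model (limma adjusted p = 0.00079).

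The promoters of LOX and ALDOC are shown because both genes went on rising and hold the core of the HIF binding site. They run from 250 bases before to 50 after the RefSeq gene start (GRCh38.p14), 5′ to 3′ on the gene's strand, LOX at chr5:122078210-122078509, minus strand and ALDOC at chr17:28576846-28577145, minus strand. Capitals mark ACGTG or GCGTG on either strand; in ALDOC, CACGTG holds ACGTG on both strands and so counts as 2 overlapping matches.
LOX: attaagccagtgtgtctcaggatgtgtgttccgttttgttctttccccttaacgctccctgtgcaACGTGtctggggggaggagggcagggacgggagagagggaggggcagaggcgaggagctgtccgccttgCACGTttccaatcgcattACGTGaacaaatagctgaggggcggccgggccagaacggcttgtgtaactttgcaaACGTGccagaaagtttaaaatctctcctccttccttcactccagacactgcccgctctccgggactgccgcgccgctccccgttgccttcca
ALDOC: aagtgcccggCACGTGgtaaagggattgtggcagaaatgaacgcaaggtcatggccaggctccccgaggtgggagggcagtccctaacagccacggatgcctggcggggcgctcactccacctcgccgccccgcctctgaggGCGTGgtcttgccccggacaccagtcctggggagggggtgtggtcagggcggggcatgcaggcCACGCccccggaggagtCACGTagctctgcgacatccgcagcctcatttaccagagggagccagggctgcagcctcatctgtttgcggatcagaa
LOX had 4 matches, of ACGTG alone, and ALDOC 5. ACGTG was present in 15 of the 24 promoters found for the measured hypoxia-inducible list (62.5%), in 9 of 22 for glycolysis (40.9%) and in 27.0% of the promoters of the 8923 tested genes with a sequence. Among all 27305 promoters the share was 21.6%. Of the 28 genes 2-fold higher, 19 had a promoter in the table and 7 of these held ACGTG (36.8%). GCGTG was present in 36.8% of the same 19, in 50.7% of the tested genes' promoters, in 54.2% for the hypoxia-inducible list and in 36.3% of all promoters. A match is a description of the letters and not a bound site.

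Glycolysis genes rose as a group but not every step did. Of 23 measured genes 14 rose and 1 fell, with a median control difference of 0.39, and 7 were 1.5-fold higher. Among all genes 12.7% rose and 12.5% fell in the model, and 2.32% were 1.5-fold higher in control cells. HK1, the hexokinase that traps glucose in the cell, read 563 at 6 h and 1313 at 12 h in shGFP cells, a 2.26-fold difference in intensity + 32, and 769.6 and 1430.0 in shNDRG3 cells (limma 1.02, adjusted p = 3.92e-08). In normoxia HK1 read 427.5, so it was within 1.5-fold of normoxia at 6 h. ALDOC, an aldolase, read 657.7 in normoxia, 5030 at 6 h and 10200.3 at 12 h, and 4830.3 and 10483 in shNDRG3 cells (limma 1.06, adjusted p = 1.12e-08). ENO2, an enolase, read 2479 and 4185 against 2634 and 5425 (limma 0.89, adjusted p = 2.6e-07), and PDK3, a kinase that inhibits pyruvate dehydrogenase, read 999 and 1926 against 1173 and 1801 (limma 0.76, adjusted p = 2.51e-06). PGK1, PFKL and GPI, which carry out other steps of the pathway, each rose by 0.65 to 0.74 in the model.

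For the glucose transporters and the lactate steps no change was called. SLC2A1 read 1804 in normoxia and then 8709 and 8742 in shGFP cells, a difference of 0.01, and 9362 and 11746 in shNDRG3 cells, a difference of 0.33. SLC2A3 read 4077, 41549 and 38515, a difference of -0.11, and the lactate exporter SLC16A3 read 7893, 16927 and 16841, a difference of -0.01. LDHA, lactate dehydrogenase A, read 34535 and 34556. SLC2A3 and LDHA lay near the top of the range of this array type, where differences can be compressed, so a lack of change is less certain for them. These 4 genes did not pass the test (limma adjusted p from 0.232 to 0.968), and they were named after their values were seen. The muscle-type phosphofructokinase PFKM fell, from 2254 to 1640.0 in shGFP and from 2070.1 to 1644 in shNDRG3 cells (limma -0.39, adjusted p = 0.00278).

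A set of early hypoxia genes can be picked on arrays that the control difference does not use, shNDRG3 at 6 h against shGFP normoxia, although this pick also holds any effect of the NDRG3 hairpin. It held 142 genes 2-fold higher. In control cells 57 of them were a further 1.5-fold higher at 12 h than at 6 h, against 2.32% of all genes, 82 were within 1.5-fold and 3 (ATP5MC1, HSPE1 and ITPK1) were 1.5-fold lower, with a median of 0.44. The 35 genes 2-fold lower in that pick had a median of -0.36, and 9 were a further 1.5-fold lower, against 2.08% of all genes. The early genes therefore included both kinds. PPFIA4, a liprin scaffold protein, read 98.5, 631 and 1766, and P4HA1, CA9 and IGFBP3 also kept climbing. DDIT4, an inhibitor of mTORC1 signalling, read 6280.4, 30958 and 25203 and fell between 6 h and 12 h (limma -0.37, adjusted p = 0.00407). STC2, a secreted glycoprotein, read 4906 and 4828, EGLN3, an oxygen-sensing prolyl hydroxylase, 589.7 and 665, and PPP1R3C, a glycogen-targeting subunit, 4613 and 4755; none passed the test, and these 3 were named after their values were seen.

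On the second platform, 24 h of hypoxia against its own normoxia array gave 313 genes 2-fold higher (2.69%), 227 lower (1.95%), 1044 genes 1.5-fold higher (8.97%) and 1070 lower (9.2%). Of the 28 genes 2-fold higher between 6 h and 12 h, 27 were measured there, 27 were above 0, 20 were 1.5-fold and 15 were 2-fold higher. Of the 15 lower genes 15 were below 0, 13 were 1.5-fold and 8 were 2-fold lower. Taken the other way, of the 24 h genes 305 higher ones were measured between 6 h and 12 h, and 84 were 1.5-fold higher and 0 lower in that interval. Of 226 lower ones 58 were 1.5-fold lower and 0 higher. Among all genes tested in that interval 2.32% were 1.5-fold higher and 2.08% lower. LOX had a 24 h difference of 4.38 and CA2, a cytosolic carbonic anhydrase, of -2.57. MT1G (0.10), MT1F (0.10) and PLAT (0.33), by contrast, were among those within 1.5-fold of normoxia at 24 h. MT1G read 208.8 in normoxia and 226.7 at 24 h, beside a filter value of 210.2 on that platform. With the background left in, its small difference cannot show whether it was induced there. MT1F, at 1487.8 in normoxia and 1591.4 at 24 h, was far above that filter value.

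Metallothioneins are small zinc- and copper-binding proteins. Of the 9 listed, 7 passed the filter and these 7 rose, MT1H having passed only through its 12 h array (105.6 and 150.0). Their median control difference was 0.95, against 0.53 in shNDRG3 cells and 0.52 over the 9 genes with no filter. In the model 12.7% of all genes rose. MT1G read 350.1 and 1035 in shGFP and 435.4 and 966 in shNDRG3 cells (limma 1.29, adjusted p = 2.48e-09). MT1X read 2048 in normoxia, 21145 at 6 h and 40815 at 12 h (limma 0.78, adjusted p = 2.1e-06), and MT2A 12590.2, 27601 and 54864 (limma 0.76, adjusted p = 6.11e-06). At 12 h both lay near the top of the range (highest gene 56012), where differences can be compressed. MT1F read 510.8 and 1098 (limma 0.88, adjusted p = 4.41e-07), and MT1A, MT1H and MT1E had control differences of 0.52, 0.40 and 0.31. The metallothionein genes are near-identical copies in 1 cluster on chromosome 16, so a probe for one can take up RNA of another, and the MT1IP pseudogene, 2-fold higher as well, belongs to the same cluster. HMOX1, haem oxygenase 1, read 423.6, 2180 and 4371 in shGFP cells (a difference of 0.99), but 3676 and 4487 in shNDRG3 cells (0.29).
The MT2A promoter (chr16:56608334-56608633, plus strand) is shown because metal response elements are the known entry point of the zinc-sensing factor MTF1. Capitals mark TGCACAC or TGCGCAC on either strand, which are only some of the forms of the element's core TGCNCNC (N is any base).
MT2A: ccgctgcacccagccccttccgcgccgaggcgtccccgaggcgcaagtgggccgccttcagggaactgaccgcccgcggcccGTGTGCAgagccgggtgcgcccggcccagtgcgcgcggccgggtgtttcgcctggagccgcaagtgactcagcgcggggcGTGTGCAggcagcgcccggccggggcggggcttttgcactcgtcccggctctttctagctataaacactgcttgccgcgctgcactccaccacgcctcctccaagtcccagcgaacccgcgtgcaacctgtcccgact
MT2A held 2 matches to these forms. Of 3 metallothionein promoters found, 2 held at least 1, against 9.09% of the tested genes' promoters. Other forms of the core, such as TGCGCCC and TGCACTC in the MT2A window, were not searched and stay in lower case. The counts therefore do not give the number of metal response elements, and a promoter without a match can still hold one.

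The stress response group was divided. Of 24 measured genes of the integrated stress response 12 rose and 2 fell, with a median control difference of 0.22, and 4 were 1.5-fold higher. PPP1R15A, which encodes the GADD34 subunit that restarts translation, read 1291 in normoxia, 1311 at 6 h and 2752 at 12 h in shGFP cells, and 1669 and 5371 in shNDRG3 cells (limma 1.36, adjusted p = 5.36e-09). At 6 h it was within 1.5-fold of normoxia, and at 12 h it was not. DDIT3, which encodes CHOP, read 334.2, 1137 and 2241, and 1540 and 3879 in shNDRG3 cells (limma 1.14, adjusted p = 1.12e-08). GDF15, a stress-induced cytokine, read 671.7, 2253 and 4411, and 1586 and 5643 in shNDRG3 cells (limma 1.39, adjusted p = 2.01e-08). ASNS, asparagine synthetase, read 1618, 2417 and 4789.7, and 2903 and 6397 in shNDRG3 cells (limma 1.05, adjusted p = 1.35e-08). ATF4 itself read 6507 and 6184, a difference of -0.07, and did not pass the test (limma adjusted p = 0.883). SLC7A11, the cystine transporter subunit, fell, from 499.7 to 340.3 in shGFP and from 546.5 to 356 in shNDRG3 cells (limma -0.55, adjusted p = 8.82e-05). ATF4 was named after its values were seen.
The ASNS promoter (chr7:97872359-97872658, minus strand) is shown because its ATF4 element is well known; capitals mark TGATGNAA, the composite of an ATF4 and a CEBP site.
ASNS: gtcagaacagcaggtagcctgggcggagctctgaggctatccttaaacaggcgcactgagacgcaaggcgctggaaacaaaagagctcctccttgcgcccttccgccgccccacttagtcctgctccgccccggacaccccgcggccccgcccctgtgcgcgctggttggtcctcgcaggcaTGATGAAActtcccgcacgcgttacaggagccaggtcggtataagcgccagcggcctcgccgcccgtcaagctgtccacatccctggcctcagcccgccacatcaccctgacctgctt
The motif was present in 4 of 20 promoters of the measured stress list (20%) and in 1.69% of the tested genes' promoters. Of 19 measured chaperone and quality control genes of the endoplasmic reticulum, 3 rose and 3 fell, with a median of 0.06. These counts lie near the share over all genes in the model, of which 12.7% rose and 12.5% fell. Of 19 aminoacyl-tRNA synthetases 4 rose and 5 fell, with CARS1 higher (605.5 to 989, limma 0.69, adjusted p = 4.48e-06) and HARS1 lower (2775 to 1961, limma -0.44, adjusted p = 0.00088).

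Heat shock chaperones of the cytosol and the mitochondrial matrix went down. Of 13 measured genes 10 fell and 0 rose, all 13 were below 0 in both lines, and the median control difference was -0.47. In the model 12.5% of all genes fell and 12.7% rose. HSPA1A, the inducible HSP70, read 8157 in normoxia, 2053 at 6 h and 1142 at 12 h in shGFP cells, and 1914 and 1054 in shNDRG3 cells (limma -0.84, adjusted p = 3.25e-07). HSPH1, a nucleotide exchange factor of HSP70, read 6189, 4371 and 2419 (limma -0.69, adjusted p = 1.02e-05). HSPE1, the mitochondrial co-chaperonin, took another course: it read 1724 in normoxia, 3270.2 at 6 h and 2119 at 12 h, and 3541 and 1566 in shNDRG3 cells (limma -0.89, adjusted p = 1.07e-06), so in shGFP cells its 12 h value lay between normoxia and 6 h.

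**Figure D3:**
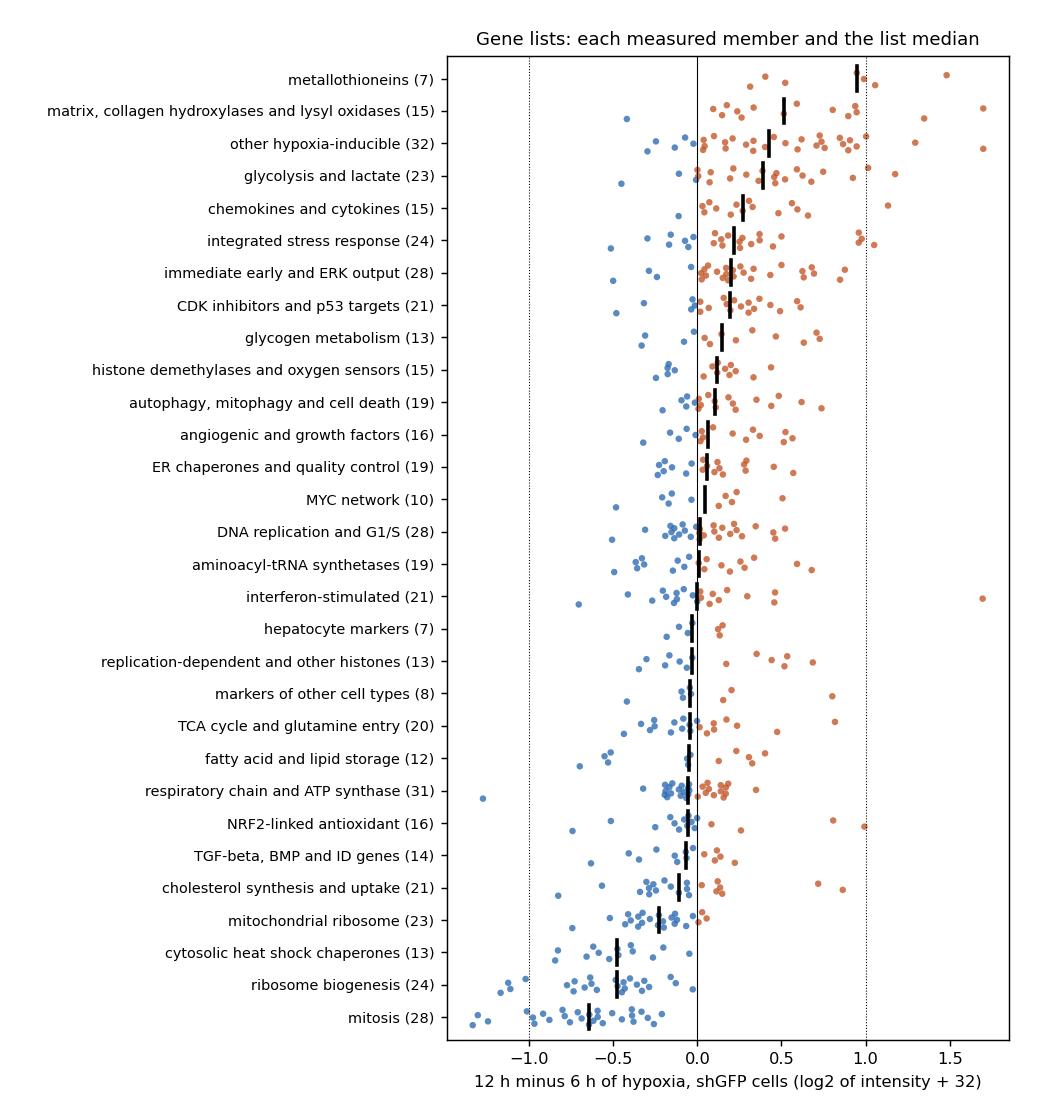
Difference between 12 h and 6 h of hypoxia in shGFP cells (log2 of intensity + 32) for each measured member of 30 gene lists, 1 point a gene, with the number of members in brackets and the list median as a black bar; dotted lines mark 2-fold. Every measured member of mitosis, ribosome biogenesis and the cytosolic heat shock chaperones is below 0 and every metallothionein above it, while DNA replication and G1/S is centred near 0.

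Mitotic genes formed the lowest list. All 28 measured genes were below 0 in both lines, 27 fell and only NUSAP1 did not pass the test, where 12.5% of all genes fell. The median difference was -0.64 in shGFP and -0.62 in shNDRG3 cells, 18 were 1.5-fold lower in shGFP cells (2.08% of all genes) and 4 were 2-fold lower. CDC20, which activates the anaphase-promoting complex, read 10932 in normoxia, 7924 at 6 h and 3122 at 12 h in shGFP cells, and 7393 and 3452 in shNDRG3 cells (limma -1.21, adjusted p = 2.48e-09). CENPA, the centromeric histone, read 1309, 1019.7 and 393.7, and 954.7 and 458.1 in shNDRG3 cells (limma -1.16, adjusted p = 7.48e-09). CCNB1, cyclin B1, read 1793, 1442 and 590.1, and 1037 and 500.0 in shNDRG3 cells (limma -1.13, adjusted p = 8.82e-09). In each of these genes the step from 6 h to 12 h was larger than the step from normoxia to 6 h, and both 12 h arrays lay below both 6 h arrays. The genes were picked on the later step and both steps share the 6 h array, so their sizes describe the picked genes and are no test of timing. ASPM, a spindle pole protein, KPNA2, an importin with a mitotic peak, and FAM83D, a spindle protein, were also 2-fold lower in control cells. At 24 h on the second platform 11 of the 28 mitotic genes were 1.5-fold lower than in normoxia and 0 were higher, with a median of -0.28.

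Of 28 measured genes of DNA replication and the G1 to S step 5 rose and 1 fell, the median control difference was 0.01, and none was 1.5-fold apart. The shares over all genes in the model were 12.7% that rose and 12.5% that fell. CDT1, which loads the replicative helicase, rose, from 1973 to 2846 in shGFP and from 2134 to 2743 in shNDRG3 cells (limma 0.44, adjusted p = 0.00101). RRM2, a ribonucleotide reductase subunit, read 1558 and 2142 but 1895 and 1931 in shNDRG3 cells, and did not pass (limma adjusted p = 0.0882). RFC3, a clamp loader subunit, fell, from 733.8 to 507 and from 774.2 to 623.3 (limma -0.40, adjusted p = 0.00237). CDKN1A, the p21 inhibitor, rose from 3224 to 4880.1 and from 3412 to 5402 (limma 0.63, adjusted p = 1.71e-05), and cyclin D1, CCND1, fell from 1224 to 867.5 and from 511.9 to 334.4 (limma -0.53, adjusted p = 0.000137). No measure of cell number or cell cycle phase was used here. In RNA from whole cultures, fewer cells of a phase and less RNA per cell cannot be told apart.

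**Figure D4:**
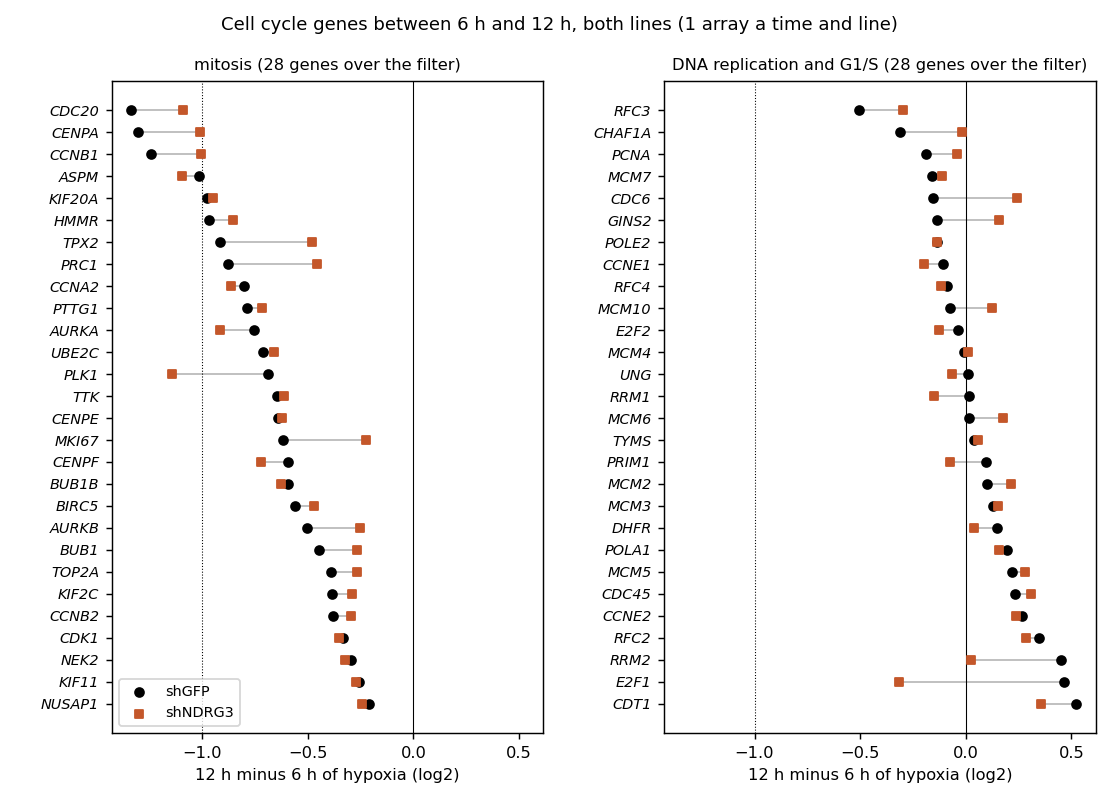
Difference between 12 h and 6 h of hypoxia (log2 of intensity + 32) for 28 genes of mitosis (left) and 28 of DNA replication and G1/S (right), in shGFP (circles) and shNDRG3 cells (squares), 1 array a time and line. All mitotic genes lie below 0 in both lines, while the replication genes lie on both sides of 0 with a median of 0.01 in shGFP cells.

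The promoters of CDC20 (chr1:43358731-43359030, plus strand), CENPA (chr2:26785806-26786105, plus strand) and CDT1 (chr16:88803539-88803838, plus strand) are shown as examples of the motifs counted here in the mitotic and the replication list. Capitals mark the CHR, TTTGAA, in CDC20 and CENPA and the E2F motif, TTTGGCGC or TTTCCCGC, in CDT1, on either strand. CENPA also held 1 E2F motif, left in lower case, and CCNB1, named above, held no TTTGAA in its window.
CDC20: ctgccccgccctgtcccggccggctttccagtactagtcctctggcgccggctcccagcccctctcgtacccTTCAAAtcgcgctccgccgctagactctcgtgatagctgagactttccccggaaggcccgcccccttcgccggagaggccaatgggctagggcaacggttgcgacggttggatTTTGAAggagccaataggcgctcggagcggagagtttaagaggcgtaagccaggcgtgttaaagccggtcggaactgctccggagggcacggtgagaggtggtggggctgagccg
CENPA: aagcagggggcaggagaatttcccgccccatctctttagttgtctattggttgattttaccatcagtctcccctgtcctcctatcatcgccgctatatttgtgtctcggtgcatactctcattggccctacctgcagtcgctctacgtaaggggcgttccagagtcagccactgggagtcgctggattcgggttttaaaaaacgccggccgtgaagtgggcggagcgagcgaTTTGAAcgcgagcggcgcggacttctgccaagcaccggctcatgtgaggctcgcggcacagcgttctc
CDT1: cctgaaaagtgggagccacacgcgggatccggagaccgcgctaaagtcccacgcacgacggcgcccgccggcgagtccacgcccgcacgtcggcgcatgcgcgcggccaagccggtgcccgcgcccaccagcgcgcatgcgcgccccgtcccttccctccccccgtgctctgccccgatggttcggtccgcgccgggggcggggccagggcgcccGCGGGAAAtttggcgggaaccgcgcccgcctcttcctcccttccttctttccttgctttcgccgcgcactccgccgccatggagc
TTTGAA was present in 14 of 23 promoters of the measured mitotic genes (60.9%), in 1 of 24 of the replication genes (4.17%) and in 9.90% of the tested genes' promoters. The E2F motif was present in 13 of 24 promoters of the replication genes (54.2%), in 2 of 23 of the mitotic genes (8.70%) and in 3.69% of the tested genes' promoters. Of the 15 genes 2-fold lower in control cells, 11 had a promoter in the table and 4 held TTTGAA.

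Ribosome biogenesis genes also went down as a group. Of 24 measured genes 20 fell and 0 rose, where 12.5% of all genes in the model fell and 12.7% rose. In shGFP cells 24 were below 0 and in shNDRG3 cells 23. The median control difference was -0.48, 11 were 1.5-fold and 4 were 2-fold lower, against 2.08% and 0.132% of all genes tested. NOP16, a factor of the large ribosomal subunit, read 2203 in normoxia, 1229 at 6 h and 528.7 at 12 h in shGFP cells, and 1064 and 430.2 in shNDRG3 cells (limma -1.21, adjusted p = 2.48e-09). RRS1, which takes part in large subunit assembly, read 2549, 1268 and 569.7, and 1136 and 449.3 in shNDRG3 cells (limma -1.20, adjusted p = 2.48e-09). NOLC1, a nucleolar phosphoprotein, read 1897, 1471 and 657.7 (limma -1.08, adjusted p = 1.09e-08), and DKC1, the pseudouridine synthase of small nucleolar RNPs, 9903, 6845 and 3358 (limma -0.98, adjusted p = 3.27e-08). NOP16 and RRS1 were the only ones of the 15 genes 2-fold lower that were already 1.5-fold below normoxia at 6 h. FBL, the rRNA methyltransferase, read 6753 and 6177, and 5806 and 6341 in shNDRG3 cells, and did not pass the test (limma adjusted p = 0.997).

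Mitochondrial ribosomal proteins went the same way in smaller steps. Of 23 measured genes 11 fell and 0 rose, with a median of -0.23, and MRPS12, a small subunit protein, read 2816 and 1670 in shGFP and 2806 and 1626 in shNDRG3 cells (limma -0.76, adjusted p = 1.2e-06). Subunits of the respiratory chain and ATP synthase had few calls: of 31 measured genes 1 rose and 1 fell and the median was -0.05. Both lists stand beside 12.7% of all genes in the model that rose and 12.5% that fell. The gene that fell was ATP5MC1, a c-subunit gene of ATP synthase. It read 2127 and 860.6 in shGFP cells and 5400.3 and 3183 in shNDRG3 cells (limma -1.02, adjusted p = 1.4e-07), so both lines dropped from levels that were far apart. RTN4IP1, a mitochondrial reductase, read 1216 and 524.5 in shGFP and 1182 and 407.4 in shNDRG3 cells (limma -1.32, adjusted p = 1.37e-09).

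Lipid and sterol genes had calls in both directions, where 12.7% of all genes rose and 12.5% fell. Of 21 measured cholesterol genes 2 rose and 6 fell, with SQLE, squalene epoxidase, at 2181 and 1216 (limma -0.83, adjusted p = 3.73e-07) and INSIG1, which retains the sterol sensor in the endoplasmic reticulum, at 1712 and 2838 (limma 0.95, adjusted p = 2.71e-07). Of 12 fatty acid genes 2 rose and 4 fell, with FASN, fatty acid synthase, at 7054 and 4334 (limma -0.66, adjusted p = 9.25e-06).

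Signalling genes downstream of ERK and stress kinases rose in part. Of 28 measured immediate early and ERK output genes 14 rose and 0 fell, with a median control difference of 0.20, and 6 were 1.5-fold higher. The shares over all genes were 12.7% that rose, 12.5% that fell and 2.32% that were 1.5-fold higher in control cells. JUN, an AP-1 subunit, read 698.7, 2291 and 4233 in shGFP cells and 2867 and 6906 in shNDRG3 cells (limma 1.07, adjusted p = 2.95e-08). KLF6, a zinc finger factor, read 589.8, 867 and 1587, and 1023 and 2403 in shNDRG3 cells (limma 1.03, adjusted p = 4.13e-08). DUSP1, a MAP kinase phosphatase, read 4868 and 7819, and 4730.1 and 9778 in shNDRG3 cells (limma 0.86, adjusted p = 5.74e-07). For JUN, KLF6 and DUSP1 the shNDRG3 difference was larger than that of the control. ETV5 went the other way, from 239.9 to 407.7 in shGFP and from 166.4 to 203.1 in shNDRG3 cells (differences of 0.69 and 0.25). A difference between the lines was not tested, since each rests on 1 array a time. EGR1 read 195.2 and 199.4 and did not pass the test (limma adjusted p = 0.971).

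Of 16 chemokine and cytokine genes that entered the model 8 rose and 0 fell. IL1A, interleukin 1 alpha, read 197.2, 402.3 and 920.7 in shGFP and 475.3 and 890.3 in shNDRG3 cells (limma 1.00, adjusted p = 4.13e-08), and CXCL8, a neutrophil chemokine, 285.2, 294.2 and 482.6, and 206 and 552 in shNDRG3 cells (limma 0.98, adjusted p = 5.74e-07). ISG20, an RNA exonuclease induced by interferon in other settings, had the second largest increase, from 916.9 to 3042 in shGFP and from 1408 to 3456 in shNDRG3 cells (limma 1.49, adjusted p = 4.15e-10). Of 21 measured interferon-stimulated genes 4 rose and 3 fell, the median was 0.00, and MX1 fell from 462.7 to 271.6 (limma -0.68, adjusted p = 5.82e-06). Over all genes in the model 12.7% rose and 12.5% fell.

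Of 13 measured glycogen genes 6 rose and 1 fell, with a median of 0.14. GYS1, glycogen synthase, read 376.1 and 643.7 in shGFP and 350.6 and 645 in shNDRG3 cells (limma 0.78, adjusted p = 9.56e-07). Of 19 autophagy, mitophagy and cell death genes 6 rose and 0 fell, with a median of 0.10, and of 21 CDK inhibitors and p53 targets 8 rose and 2 fell, with a median of 0.20. Of 14 TGF-beta, BMP and ID genes 0 rose and 3 fell, among them ID3, an inhibitor of helix-loop-helix factors, which read 10805 and 6961 in shGFP and 8404 and 5575 in shNDRG3 cells (limma -0.61, adjusted p = 2.24e-05). The remaining lists had medians between -0.07 and 0.12. All counts in this paragraph stand beside shares over all genes in the model of 12.7% that rose and 12.5% that fell. Of 20 TCA cycle genes 3 rose and 4 fell, and IDH2, the mitochondrial NADP-dependent isocitrate dehydrogenase, read 480.3 and 871 (limma 0.84, adjusted p = 2.99e-07). Of 16 NRF2-linked genes 2 rose and 2 fell, and AKR1B10, an aldo-keto reductase, read 233.6 and 126.8 (limma -0.73, adjusted p = 2.1e-06). For histones the counts were 5 and 1 of 13, for angiogenic and growth factors 4 and 1 of 16, for histone demethylases and oxygen sensors 2 and 0 of 15, and for the MYC network 1 and 1 of the 11 in the model. Of the 10 hepatocyte markers in the model 0 rose and 0 fell, and of 8 markers of other cell types CD68 rose (895.2 and 1585, limma 0.78, adjusted p = 8.48e-07) and COL1A1 fell.

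Other genes with large increases are not members of a list. TLE6, a transcriptional corepressor of the Groucho family, read 192.3, 438.1 and 1237 in shGFP and 609.6 and 1516 in shNDRG3 cells (limma 1.35, adjusted p = 4.25e-10). MB, myoglobin, the oxygen-binding protein of muscle, read 165.7, 233.9 and 612.7, and 304.8 and 941 in shNDRG3 cells (limma 1.40, adjusted p = 4.15e-10). TMEM158, a membrane protein first described as a RAS-induced gene, read 1818, 4227 and 10419, and HDAC6, a cytoplasmic deacetylase, 435, 553.7 and 1232. CLEC2B, a C-type lectin, read 1738 and 4015. Further genes 2-fold higher were KCNJ12, COL7A1, ERRFI1, PLA2G4D, CATSPER1, MUC1, CFB, TXNIP and ITGB4, with control differences from 1.00 to 1.10. ITGB4 lay just inside the 2-fold line at 1.0002 and ITGB2 just outside at 0.99999, and among the lower genes ASPM lay inside at -1.01 and ODC1 outside at -0.98. HPDL and LYSMD2 complete the lower genes, at 540.8 and 231.4 and at 1399.8 and 626.7.

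The 6 h array allows a view of when each gene moved, as a description only, since it is shared with the difference. Of the 28 higher genes 17 were already 1.5-fold above the normoxia array at 6 h and 11 were within 1.5-fold of it, namely MT1G, PLAT, MB, HK1, HDAC6, KCNJ12, PLA2G4D, CATSPER1, CFB, PPP1R15A and ITGB4. Of the 15 lower genes 2 were already 1.5-fold lower and 13 within 1.5-fold. Of the 264 genes 1.5-fold higher, 85 were already 1.5-fold above normoxia at 6 h and 177 within it. Of the 236 genes 1.5-fold lower, 26 were already lower and 209 within it.

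The shHIF1A and shNDRG3 arrays at 12 h share no array with the control difference and show how its genes stood in cells with less HIF1A mRNA. Over all 11401 genes tested, 316 were 1.5-fold lower (2.77%) and 304 higher (2.67%) on the shHIF1A array. Of the 28 genes 2-fold higher between 6 h and 12 h, 8 were 1.5-fold lower there and 4 were higher, with a median of -0.28 and a range of -1.82 to 1.42. At 2-fold 68 of all genes were lower (0.596%) and 43 higher (0.377%), and of the 28 genes 5 were lower and 1 was higher. ALDOC read 2941 on the shHIF1A array against 10483 on the shNDRG3 array, PPFIA4 402 against 1375, TLE6 605.8 against 1516 and MB 396.9 against 941. LOX (11071 against 10522), IGFBP3 (21355 against 19902) and COL5A1 (9342 against 8682) stood within 1.5-fold of each other on both arrays. PLAT (1194 against 427.1) was higher on the shHIF1A array. The increases between 6 h and 12 h were thus of genes that were low, level and high on the shHIF1A array. Each line is 1 array, so a difference of 1 gene has no replicate check, and the difference holds the effect of both hairpins.

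By list, 10 of 23 glycolysis genes and 13 of 32 other hypoxia-inducible genes were 1.5-fold lower on the shHIF1A than on the shNDRG3 array. Among all genes tested there 2.77% were 1.5-fold lower and 2.67% higher. Of the 28 mitotic genes 0 were lower and 2 higher, with a median of 0.08, and of 23 ribosome biogenesis genes 1 was lower and 1 higher, with a median of 0.11. Of the 15 genes 2-fold lower between 6 h and 12 h, 1 was 1.5-fold apart: CA2 read 2369 on the shHIF1A array against 670.9 on the shNDRG3 array and 788.2 on the shGFP array at 12 h. EPAS1, which encodes HIF2A, read 3757 and 4318 in shGFP cells and 6628 and 7240.4 in shNDRG3 cells, differences of 0.20 and 0.13 that did not pass the test (limma adjusted p = 0.213). HIF1A mRNA differed by 0.12 and 0.39 between the times (limma adjusted p = 0.0535).

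**Figure D5:**
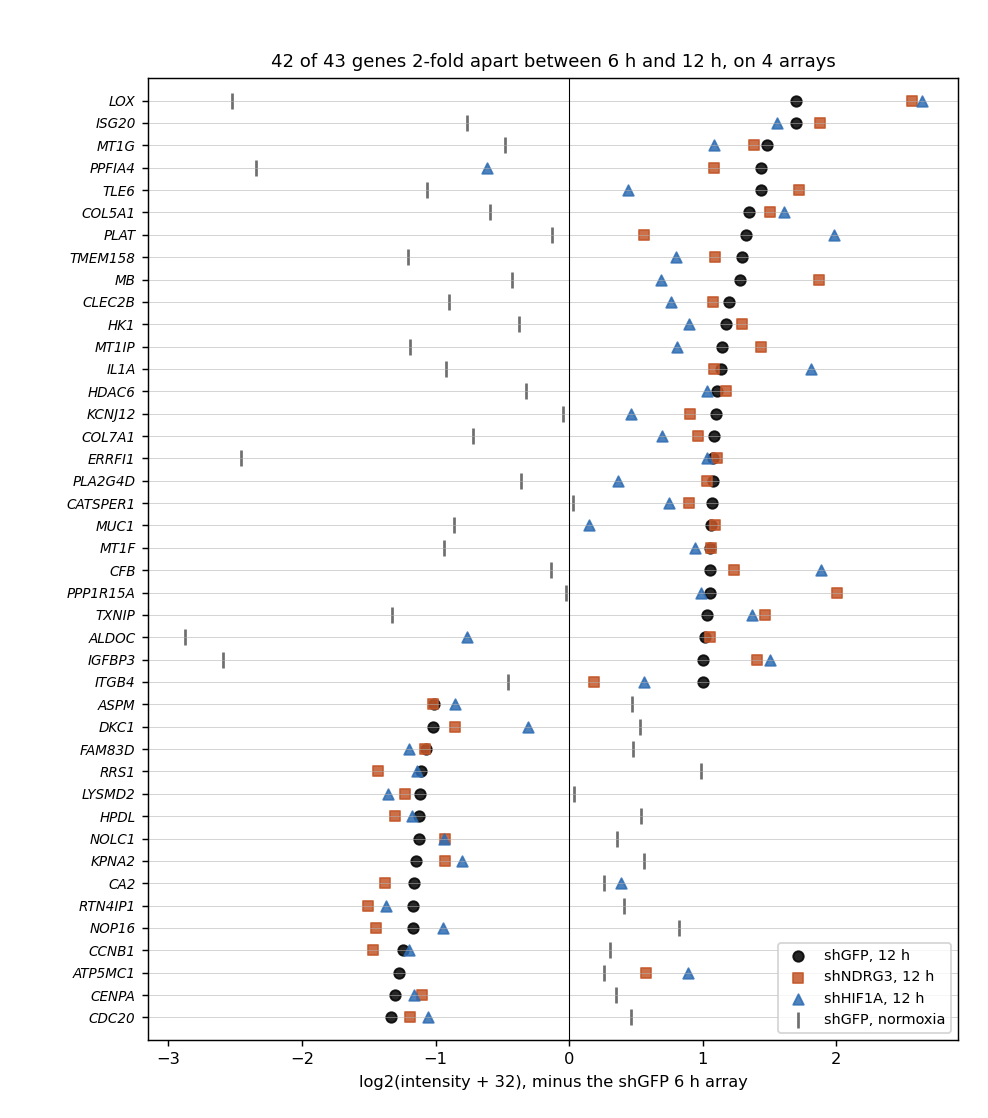
42 of the 43 genes 2-fold apart between 6 h and 12 h of hypoxia in shGFP cells, as log2(intensity + 32) minus the value of the shGFP 6 h array (vertical line at 0), on the 12 h arrays of shGFP (circles), shNDRG3 (squares) and shHIF1A (triangles) and on the shGFP normoxia array (ticks), 1 array a point. PPFIA4 and ALDOC on the shHIF1A array lie below the shGFP 6 h level, and LOX, IGFBP3 and COL5A1 stand beside the shNDRG3 value. Of the lower genes CA2 and ATP5MC1 lie above 0 on the shHIF1A array, and ATP5MC1 lies above 0 on the shNDRG3 array as well.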

How the data were processed

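Groups were taken from the sample titles. The labels' protocols describe amplification of 200 ng of total RNA and a biotin label; the sources used here do not name the scanner, the software or the normalization. The authors deposited linear intensity values per gene over all 9 arrays and per probe for each platform. The deposited intensity values of a platform share 1 distribution, as quantile normalized values do, and background was not subtracted. The arrays' number and their signal over background, not depth, set the precision.

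Gene names were updated through RefSeq synonyms (GRCh38.p14; 15058 current, 2292 renamed, 803 kept as filed). Values were analysed as log2(intensity + 32) with no further normalization. The filter kept genes at or above the platform's 40th percentile (127.3 or 210.2) on 1 or more of the arrays compared. With 1 array a side, genes 2-fold or 1.5-fold apart were counted with no test. limma 3.58.1 (R 4.3.3) was fitted to the 4 shGFP and shNDRG3 arrays at 6 h and 12 h with the line as a block and time as a term (1 residual degree of freedom, prior 23.7; Benjamini-Hochberg adjusted p under 0.05), and was tested on simulated data. The labels say nothing of separate cultures.

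Named genes were the 15 largest control differences each way, up to 4 members of each of 30 lists, all members of lists of 10 or fewer, the 8 largest limma calls each way, and NDRG1, NDRG3, HIF1A and EPAS1; others are said to be named after their values were seen, or are examples of a list's level or called members chosen likewise. The comparison, lists and rule were chosen with earlier results of these data known. A gene that the rule names is counted but not reported here. Promoter sequences are from RefSeq (GRCh38.p14), the first listed per symbol; both strands were searched. Alternatives covered the filter, pseudocount, background, centring, single-probe genes, the probe table, the limma options and the block. Python 3.11.15, numpy 2.4.6 and pandas 2.3.3 were used.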

Additional observations from a re-analysis of the deposited data

How the results depend on the processing

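Under the alternatives run, neither the 15 largest control differences each way nor any list median of at least 0.1 in size changed direction; the other named genes were not run. With the larger pseudocount tried, 4 times the main one, the genes 1.5-fold higher and lower in control cells numbered 170 and 157, and those 2-fold lower in shNDRG3 cells 13. With the 1st percentile of each array subtracted as background the 2-fold counts were 57 and 38 in control and 64 and 36 in shNDRG3 cells, and the 1.5-fold counts in control cells 502 and 479. Per probe, without gene names, 25 probes were 2-fold lower in control cells, and 53 were higher and 38 lower in shNDRG3 cells. Among the 8144 genes equal to 1 probe limma called 934 and 968, with fewer genes tested. The line block pairs the arrays of a line: without that replicate block limma called 425 genes higher and 456 lower, and ATP5MC1 (-1.02), for one, was no longer past the threshold, since the level difference between the lines then entered the error. Replicates could not be left out, with 1 array a group. Of the values of single genes and list medians, 25 moved by more than 0.13, the SD of the spread between the lines, 2 were no longer past the limma threshold, and 680 moved by less or kept their call.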
